A study of Homo sapiens with 6 samples.

Results

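The 9 genes examined here, EIF4B, PDCD4, EEF2K, POLDIP3, CAD, URI1, NCBP1, SRPK2 and BAD, encode proteins that are reported to be phosphorylated by p70 S6 kinase 1 (S6K1). They were chosen by name for that property, by a rule that uses no measured value although earlier results of these data were known, and were found as 9 of the 61155 gene symbols counted in the deposited table. All 9 passed the filter on low counts, which left 19521 genes for testing. The libraries were made from undifferentiated cells of H7, an established human embryonic stem cell line grown without feeders on Matrigel. The WT group comprised 3 libraries of unedited H7 cells and the S6K1-/- group 3 libraries of H7 cells in which RPS6KB1, the gene encoding S6K1, had been cut with Cas9 by guides directed at exons 9 and 11. The edited cells had been expanded clonally and represent a single clone, so that genotype and clone cannot be told apart. GEO's labels call the genotype a knockdown and give a time of week 5. The methods describe a knockout and undifferentiated cells, and that description is followed for both groups. Nothing states whether the libraries of a group came from separate cultures, and the p-values therefore measure only the spread between these libraries, which may be technical.

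S6K1 is a serine and threonine kinase of the AGC family that is switched on by mTOR complex 1 when nutrients and growth factors are plentiful. It acts on its substrates by phosphorylation, which changes the activity, binding partners or lifetime of a protein, so that it couples growth signals to translation, RNA processing, nucleotide synthesis and cell survival. Counts of mRNA report how much transcript of a substrate was present, and phosphorylation of the proteins was not measured in these libraries.

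AGC kinases favour a serine or threonine with an arginine at the fifth and at the third residue before it. The motif is partly known from proteins such as these, so its presence is not independent of the choice of genes and is given as a description. It was searched for in the translated coding sequence of the MANE Select transcript of each gene (GENCODE 44, GRCh38). At least 1 match was found in 5 of the 9 proteins (EIF4B, PDCD4, URI1, SRPK2 and BAD), and a match was present in 23.7% of the 19061 human proteins searched the same way. With serine alone as the last residue the same 5 proteins had a match, beside 16.7% of all proteins. EIF4B held 5 matches, URI1 4, PDCD4 and BAD 2 each, and SRPK2 1, while none was found in EEF2K, POLDIP3, CAD or NCBP1. The coding bases of 7 of the serine matches are shown as examples from each of the 5 proteins, leaving out EIF4B serines 230 and 406 and URI1 serine 418. They include residues known as S6K1 sites in EIF4B (serine 422), PDCD4 (serine 67) and BAD (serine 99). Each stretch runs 5′ to 3′ on the coding strand from the first arginine codon, lies within 1 coding exon, and has the serine codon in capitals.
EIF4B serine 422, chr12:53034652-53034669, plus strand: cggtcgaggacaggaAGT
PDCD4 serine 67, chr10:110881373-110881390, plus strand: cgactaaggaaaaacTCA
PDCD4 serine 457, chr10:110898032-110898049, plus strand: agaaagcgttttgtaAGC
URI1 serine 372, chr19:30011157-30011174, plus strand: cgtaaacgaaagaacAGC
SRPK2 serine 505, chr7:105142036-105142053, minus strand: agaagcagaacggttTCA
BAD serine 75, chr11:64271766-64271783, minus strand: cggagtcgccacagcTCC
BAD serine 99, chr11:64271694-64271711, minus strand: cggggccgctcgcgcTCG
The search fixed the spacing of the arginine codons, and a match is a description of the sequence and not evidence that the residue was phosphorylated in these cells.

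Library totals ranged from 21896698 to 24473013 counts. Of 10 markers of undifferentiated stem cells, all were detected in every library, and POU5F1 lay between 167 and 196 CPM (counts relative to the size of the library after TMM scaling). The summed level of these markers was 6666 to 6809 CPM in WT and 6199 to 6289 CPM in S6K1-/- libraries, and the list went both ways, with 7 genes below 0 and 3 above. DNMT3B passed the threshold of 0.001 (log2 fold change -0.35, adjusted p = 4.88e-05), and ZFP42 had the largest value above 0 (0.17, adjusted p = 0.00874). Of 5 forebrain markers that passed the filter, 4 were below 0 and 1 above, with a median log2 fold change of -0.54. DCX (-0.54, adjusted p = 4.91e-04) and PAX6 (0.76, adjusted p = 2.69e-04) passed the threshold, MAP2 (-0.85, adjusted p = 0.00735) did not, and TBR1 was at 0 in all libraries. Of 3 retinal markers that passed the filter, SIX6 (-1.57, adjusted p = 1.41e-08) and PMEL (-0.39, adjusted p = 6.95e-05) were lower, and MITF had a value above 0 (0.093, adjusted p = 0.886). A list of 6 fibroblast markers summed to 145 to 151 CPM in WT and 67.4 to 69.7 CPM in S6K1-/- libraries, with DCN at 0 in all libraries and COL1A1 (-1.79, adjusted p = 6.95e-12), PDGFRB (-1.34, adjusted p = 5.41e-06) and COL1A2 (-0.50, adjusted p = 2.50e-06) lower. Of 3 mesendoderm markers that passed the filter, 2 were below 0 and 1 above. Among them were FOXA2 (-0.88, adjusted p = 0.00108) and MIXL1 (0.24, adjusted p = 0.0449). The 2 amnion and trophoblast markers that passed the filter were below 0, with KRT7 at -0.82 (adjusted p = 0.00103). No gene of these last lists passed the threshold. The part of the shifts of all these markers in the values below was not tested.

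The edited gene, RPS6KB1 (chr17:59893046-59950574, plus strand), had 831, 791 and 777 counts in WT and 464, 464 and 438 counts in S6K1-/- libraries. Every S6K1-/- library was below every WT library. The level fell from 33.3 ± 0.994 to 19.8 ± 0.371 CPM (SD, n = 3 each). The log2 fold change was -0.75 (SE 0.057, adjusted p = 2.52e-07). The paper reports the deletion of S6K1 in H7 cells by PCR genotyping and by western blotting of the protein. The remaining counts are therefore not a measure of remaining kinase. Against this drop in the kinase transcript, the transcripts of its substrates were compared with edgeR's quasi-likelihood test, with p-values adjusted by the Benjamini-Hochberg method over all genes tested and the study's threshold of 0.001.

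None of the 9 substrate genes passed the threshold, in either direction, where 3.96% of all genes tested did (2.54% lower and 1.42% higher). The count was also 0 with DESeq2's Wald test and, with edgeR, at an adjusted p under 0.05, which 13.8% of all genes passed (8.31% lower and 5.47% higher). At an unadjusted p under 0.05, edgeR gave 1 of the 9 genes (NCBP1) and DESeq2 gave 2 (NCBP1 and EIF4B), or 11.1% and 22.2% of the 9. Of the 19521 filtered genes 26.4% were under it with edgeR. DESeq2 was run without that filter, and 10.2% of its 37732 genes were under it, so the shares over all genes rest on different sets and are not compared. Fold changes of S6K1-/- against WT lay between 0.908 for BAD and 1.08 for NCBP1. The 95% confidence intervals of all 9 genes together spanned folds of 0.781 to 1.14, and without BAD, the gene with the fewest counts, they spanned 0.882 to 1.14. The median log2 fold change was 0.011 over the 9 genes and -0.0024 over all genes tested. Without regard to sign the median size was 0.046 against 0.11, and 0.047 over the 65 partner and target genes described below. All genes tested were not matched to the 9 for level and include many with fewer counts. All S6K1-/- libraries lay on one side of all WT libraries for EIF4B and NCBP1, 2 of the 9 genes (22.2%) and both higher in S6K1-/- cells, where this held for 30.7% of all genes tested and, in the higher direction, for 14% of them.

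**Figure D1:**
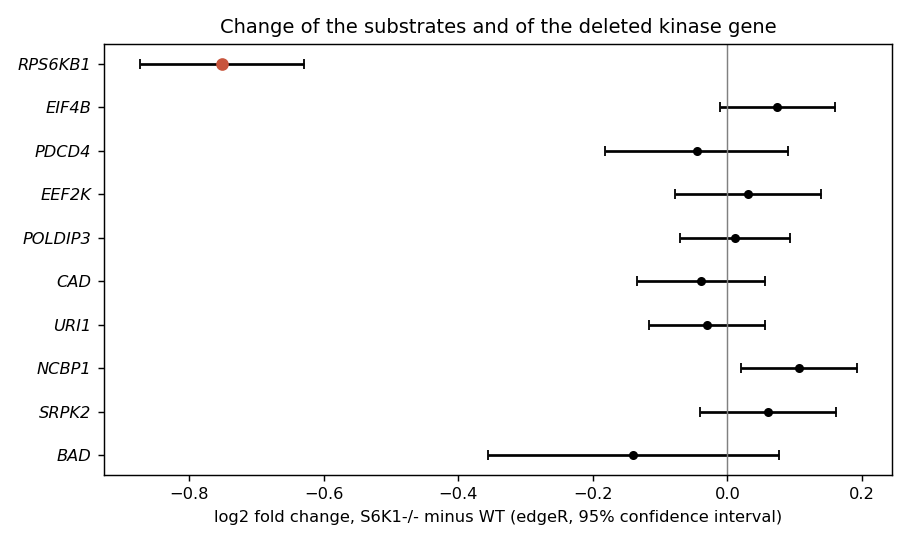
Log2 fold change of S6K1-/- minus WT hESCs (horizontal axis) for RPS6KB1 (red) and the 9 substrate genes (black), with points for the edgeR estimate and bars for its 95% confidence interval, 3 libraries per group. RPS6KB1 lies at -0.75, while the substrate estimates lie from -0.14 (BAD) to 0.11 (NCBP1), and NCBP1 is the only substrate whose interval leaves out 0.

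Of the substrates that act on translation, EIF4B (chr12:53006282-53042215, plus strand) encodes the factor that stimulates the RNA helicase eIF4A during initiation. Its counts were 23470, 23747 and 22484 in WT and 23988, 23709 and 22619 in S6K1-/- libraries, the highest of the 9 genes. On the CPM scale it stood at 964, 966 and 968 in WT and at 1022, 990 and 1039 in S6K1-/- libraries. The groups did not overlap, with each S6K1-/- library above each WT library. The difference from 966 ± 1.94 to 1017 ± 24.7 CPM (SD, n = 3 each) corresponded to a log2 fold change of 0.074 (95% confidence interval -0.011 to 0.16, adjusted p = 0.261). The WT libraries varied by 0.201% around their mean, less than the 0.656% that counting alone would give, and the S6K1-/- libraries by 2.43%. Counts of the pseudogenes EIF4BP3, EIF4BP6 and EIF4BP7 came to 0.251%, 0.887% and 1.35% of those of EIF4B, and how reads that match several copies were counted is not stated.

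PDCD4 (chr10:110871795-110900006, plus strand) encodes an inhibitor that binds eIF4A and is degraded after phosphorylation by S6K1. Its level was 30.0, 29.7 and 33.6 CPM in WT and 28.6, 30.2 and 31.6 CPM in S6K1-/- libraries, from 671 to 780 counts. The ranges overlapped, and the highest value belonged to a WT library. The log2 fold change was -0.046 (95% confidence interval -0.18 to 0.090, adjusted p = 0.706), and without WT replicate 3 it was 0.019. BBIP1, on the opposite strand, shares 28.1% of the exon bases of PDCD4, and as the strand setting of the counting is not stated, reads in that stretch could have been left out or assigned to either gene.

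EEF2K (chr16:22206278-22288738, plus strand) encodes the kinase that inhibits elongation factor eEF2 and that S6K1 in turn inhibits. It had 37.6, 39.5 and 37.2 CPM in WT and 39.5, 39.7 and 37.5 CPM in S6K1-/- libraries. The libraries of the groups were interleaved, and the difference came to a log2 fold change of 0.030 (95% confidence interval -0.079 to 0.14, adjusted p = 0.767). It was 0.016 without S6K1-/- replicate 2, 0.057 without WT replicate 2 and 0.064 without S6K1-/- replicate 3.

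EIF4B and PDCD4 act on the same helicase in opposite directions, and their ratio within a library does not depend on the scaling between libraries. The ratio of their counts, chosen after the values had been seen, was 32.1, 32.6 and 28.8 in WT and 35.7, 32.8 and 32.9 in S6K1-/- libraries. All S6K1-/- libraries were above the WT libraries, the closest by 32.8 against 32.6. An exact two-sided permutation test gave p = 0.1, the smallest that 3 against 3 libraries allow, and 0.3 after adjustment over the 3 ratios computed. Since 1 gene of the pair has about 700 counts per library, the ratio carries a counting error close to that of PDCD4 (3.66% in WT).

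**Figure D2:**
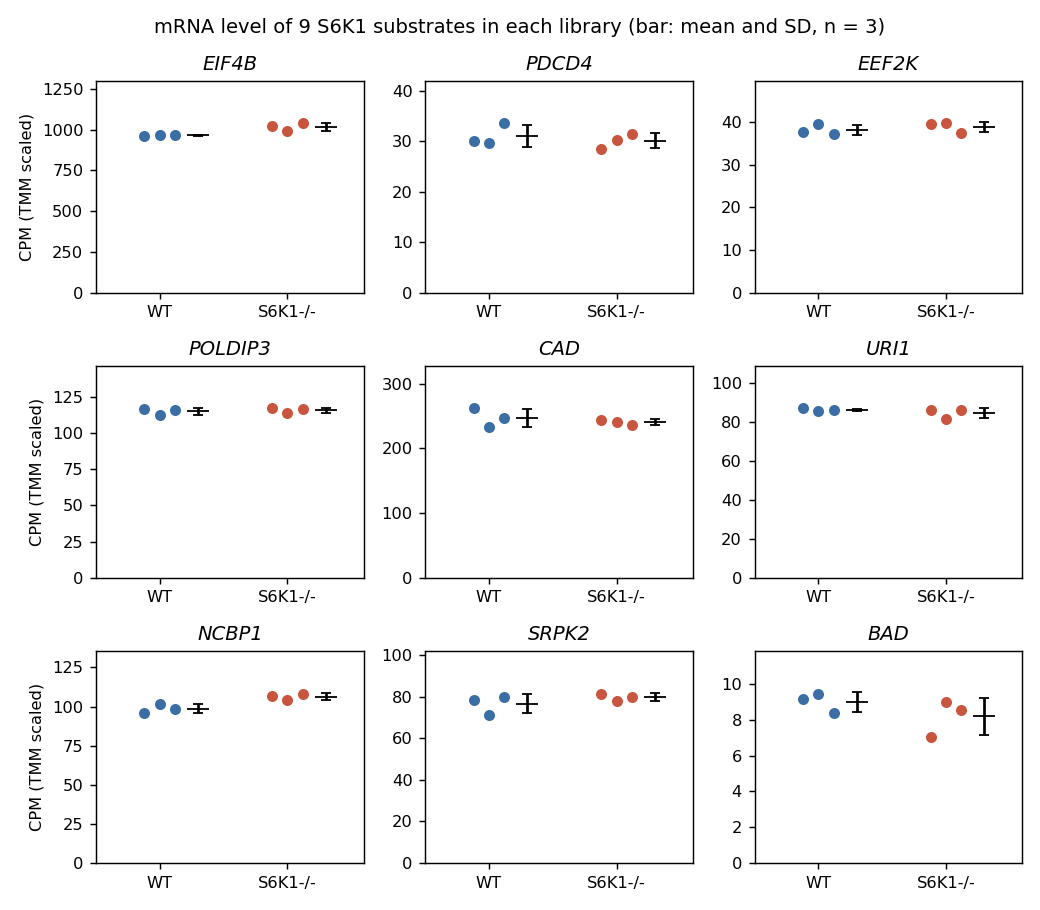
Level of each substrate mRNA in CPM after TMM scaling (vertical axes from 0), with 1 point per library for WT (blue) and S6K1-/- (red) hESCs and the mean with SD of 3 libraries beside the points. Only for EIF4B and NCBP1 are all S6K1-/- points above all WT points, and for both the gap is small beside the level.

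The substrates that act on RNA included NCBP1 (chr9:97633668-97673748, plus strand), the large subunit of the nuclear cap-binding complex. Counts were 2339, 2498 and 2289 in WT and 2503, 2491 and 2357 in S6K1-/- libraries, or 96.1, 102 and 98.5 CPM against 107, 104 and 108 CPM. All S6K1-/- libraries exceeded all WT libraries. With DESeq2's Wald test EIF4B had a smaller p (0.0164) than NCBP1 (0.0214). With edgeR NCBP1 had the smallest p of the 9 genes, and its log2 fold change was 0.11 (SE 0.040, 95% confidence interval 0.020 to 0.19). It did not pass after adjustment (adjusted p = 0.0990, and from 0.0549 to 0.235 over the alternatives). In absolute size, 51.4% of all genes tested, not matched to NCBP1 for level, had a larger log2 fold change than NCBP1. The 3 genes with the closest pattern of log2 CPM over the 6 libraries, each centred on its mean, were SKP2 (Euclidean distance 0.030), TFDP1 (0.033) and HMGN1 (0.034). Their log2 fold changes were 0.10, 0.12 and 0.079, and none passed the threshold.

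NCBP2, the small subunit of the same complex, was not one of the 9 genes and stood at 118, 121 and 121 CPM in WT and 132, 128 and 133 CPM in S6K1-/- libraries, again without overlap. Its log2 fold change was 0.13 (SE 0.038, adjusted p = 0.0374), which did not pass 0.001. The ratio of NCBP1 to NCBP2 counts was 0.811, 0.837 and 0.817 in WT and 0.806, 0.811 and 0.813 in S6K1-/- libraries. These ratios overlapped between the groups (exact two-sided permutation p = 0.2, adjusted p = 0.3).

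POLDIP3 (chr22:42583721-42614962, minus strand), known as SKAR, encodes a protein of spliced mRNAs that recruits S6K1 to them. It had 116, 112 and 116 CPM in WT and 117, 114 and 117 CPM in S6K1-/- libraries. The values of the groups were interleaved, and the log2 fold change was 0.011 (95% confidence interval -0.071 to 0.093, adjusted p = 0.892), the smallest in size of the 9 genes. Without WT replicate 2 it was -0.0040. In GENCODE 44 a second gene model on the same strand, ENSG00000289517, shares 91.1% of the exon bases of POLDIP3, and whether the annotation used for counting held it is not known.

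SRPK2 (chr7:105110704-105399308, minus strand) encodes a kinase of SR splicing proteins. Its level was 78.5, 71.3 and 79.6 CPM in WT and 81.4, 77.9 and 79.9 CPM in S6K1-/- libraries. The lowest value was that of WT replicate 2, and the other libraries of both groups lay close together. SRPK2 thus differed by a log2 fold change of 0.060 (95% confidence interval -0.040 to 0.16, adjusted p = 0.463), and the value was 0.013 without WT replicate 2 and 0.097 without WT replicate 3.

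CAD (chr2:27217369-27243943, plus strand) encodes the enzyme that catalyses the opening steps of pyrimidine synthesis and that S6K1 activates. It had 262, 233 and 247 CPM in WT and 244, 241 and 237 CPM in S6K1-/- libraries. The WT libraries held both the highest and the lowest value, with a coefficient of variation of 5.71% in WT against 1.64% in S6K1-/- libraries. The log2 fold change was -0.039 (95% confidence interval -0.13 to 0.056, adjusted p = 0.635), and without WT replicate 1 it was 0.012.

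URI1 and BAD have roles in cell survival. URI1 (chr19:29923644-30016612, plus strand), a prefoldin-like protein that binds a catalytic subunit of protein phosphatase 1, had 87.0, 85.7 and 86.3 CPM in WT and 86.0, 81.5 and 86.0 CPM in S6K1-/- libraries. Its groups overlapped, with S6K1-/- replicate 2 the lowest library. For URI1 the log2 fold change was -0.031 (95% confidence interval -0.12 to 0.055, adjusted p = 0.687), and without S6K1-/- replicate 2 it was -0.0038.

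BAD (chr11:64269830-64284704, minus strand) encodes a pro-apoptotic BH3-only protein that binds BCL-xL unless phosphorylated. Its counts were the lowest of the 9 genes, at 224, 233 and 195 in WT and 165, 216 and 186 in S6K1-/- libraries, or 9.20, 9.48 and 8.39 CPM against 7.03, 9.02 and 8.54 CPM. S6K1-/- replicate 1 was the lowest library, and the other libraries overlapped. The log2 fold change was -0.14, the largest in size of the 9 genes, with the widest interval (-0.36 to 0.077, adjusted p = 0.426). Without S6K1-/- replicate 1 it was -0.038, and without S6K1-/- replicate 2 it was -0.22, neither past the threshold. Counting alone gives BAD a variation of 6.78% in WT and 7.27% in S6K1-/- libraries, and the measured variation was 6.24% and 12.7%. GPR137 on the opposite strand shares 23.7% of the exon bases of BAD.

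**Figure D3:**
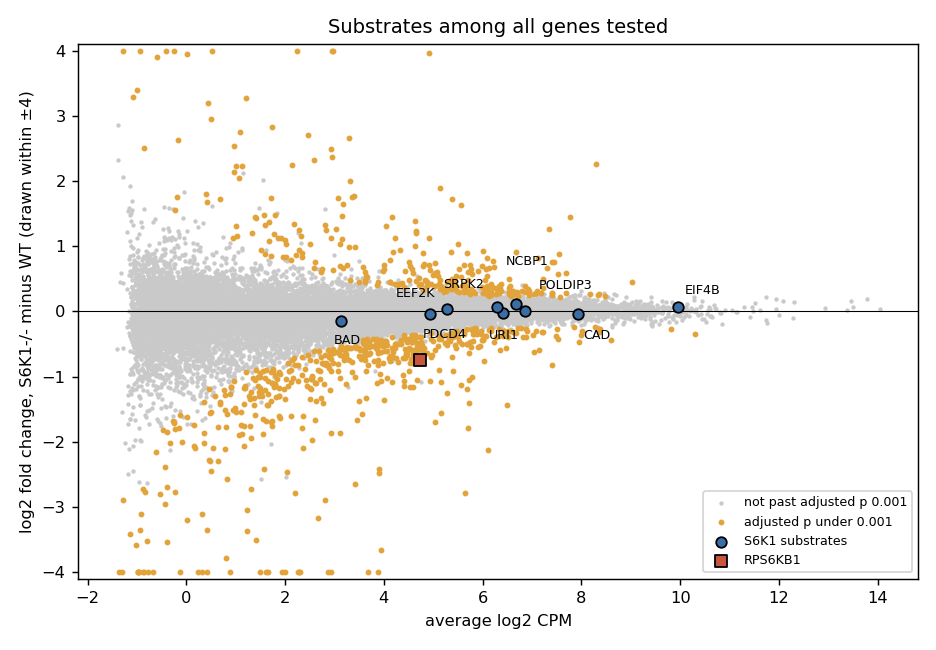
Log2 fold change of S6K1-/- minus WT (vertical axis, drawn within ±4 so that larger changes sit on the edge) against average log2 CPM (horizontal axis) for all 19521 genes tested, with genes past an adjusted p of 0.001 in orange, the 9 substrates in blue and RPS6KB1 as a red square. The substrates lie in the grey band of genes that did not pass at every level of expression from BAD to EIF4B, while RPS6KB1 lies below it.

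Levels were compared between genes only per length, as CPM per kb of the merged exons of a gene. In WT hESCs EIF4B stood highest at 160 ± 0.322 CPM per kb (SD, n = 3), above 99.0% of 15736 tested genes with a known length. POLDIP3 followed at 31.5 ± 0.608 and CAD at 29.3 ± 1.67 CPM per kb, and the ranges of this pair overlapped. Below them came NCBP1 at 17.9 ± 0.504, URI1 at 15.8 ± 0.115, SRPK2 at 9.86 ± 0.581 and PDCD4 at 6.84 ± 0.477 CPM per kb. BAD at 5.28 ± 0.329 and EEF2K at 4.75 ± 0.148 CPM per kb were lowest, so that EIF4B exceeded EEF2K 33.8-fold. In S6K1-/- hESCs the order was the same except that EEF2K (4.85 ± 0.154) and BAD (4.80 ± 0.610) changed places within their SD. With the longest transcript as the length instead, EIF4B stood at 251 and URI1 at 25.0 CPM per kb, and POLDIP3 and CAD, and NCBP1 and URI1, changed places. As Bowtie2 does not align across splice junctions, genes with many short exons may be undercounted in this order, whereas the comparison of the groups within a gene uses the same exons on both sides. EIF4B accounted for 57.9% of the summed CPM of the 9 genes in WT and 59.1% in S6K1-/- libraries, so a sum over the substrates mostly reads EIF4B.

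**Figure D4:**
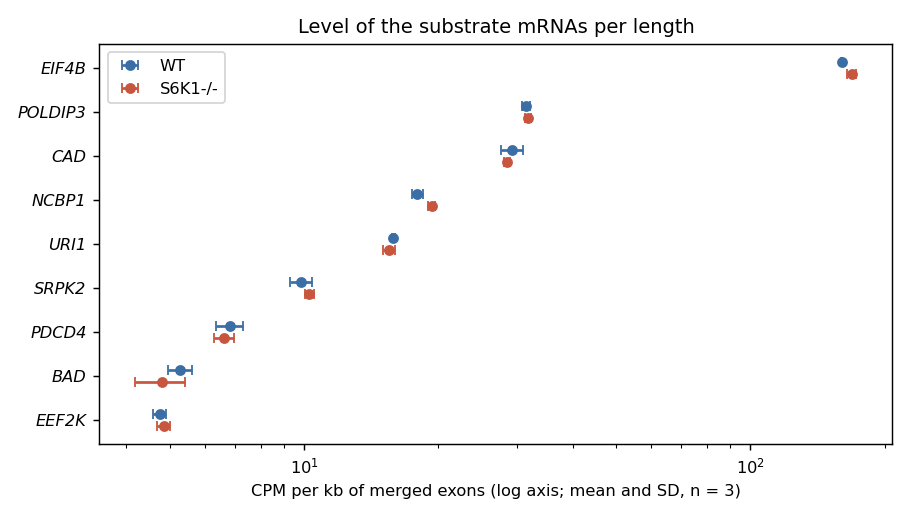
Level of the 9 substrate mRNAs in CPM per kb of merged exons (horizontal log axis) in WT (blue) and S6K1-/- (red) hESCs, with points for the mean and bars for the SD of 3 libraries. The genes spread from 4.75 (EEF2K) to 160 (EIF4B) CPM per kb in WT, a span far wider than the gap between the groups within any gene.

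The genes that act with the 9 substrates were taken from lists of partners and of other S6K1 targets, 65 genes in all, each of which passed the filter. Of these, 2 were lower in S6K1-/- hESCs and none was higher (2.54% and 1.42% of all genes tested), and RPS6KB1 itself was 1 of the 2. The median log2 fold change of the 65 genes was 0.013.

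Among 6 S6K and RSK kinase genes, RPS6KB1 alone passed the threshold. Its paralog RPS6KB2 had 39.3 ± 2.45 CPM in WT and 41.2 ± 2.39 CPM in S6K1-/- hESCs (SD, n = 3 each), and its log2 fold change was 0.065 (adjusted p = 0.540). RPS6KA1 and RPS6KA2, which encode RSK kinases of similar site preference, had log2 fold changes of -0.11 and 0.13 (adjusted p = 0.114 and 0.110).

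Of 12 further genes for reported S6K1 substrates, among them RPS6, MTOR, RICTOR, IRS1 and GSK3B, none passed. Their median log2 fold change was 0.036. RPS6, the ribosomal protein for which the kinase is named, stood at 1277 ± 40.8 CPM in WT and 1266 ± 65.2 CPM in S6K1-/- hESCs (log2 fold change -0.013, adjusted p = 0.899). The smallest p-values belonged to PRKAA2, which encodes a catalytic subunit of AMPK (log2 fold change -0.27, adjusted p = 0.0127), to the Hedgehog pathway factor GLI1 (0.20, adjusted p = 0.0564) and to MAPKAP1, a component of mTOR complex 2 (0.078, adjusted p = 0.208).

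Around EIF4B, PDCD4 and EEF2K, 9 genes were tested, a list of eIF4F, eEF2 and PDCD4 turnover that also held the initiation factor gene EIF4H. None passed the threshold, and the median log2 fold change was 0.067. FBXW11, which encodes a βTrCP subunit of the ubiquitin ligase that degrades PDCD4, came closest. It had 77.9, 82.9 and 79.3 CPM in WT and 66.1, 66.6 and 70.2 CPM in S6K1-/- libraries, without overlap (log2 fold change -0.24, SE 0.044, adjusted p = 0.00128), and DESeq2's Wald test placed it past 0.001 (adjusted p = 9.45e-04), as did edgeR without the filter on low counts (2.41e-05). EIF4G3 had a log2 fold change of 0.098 (adjusted p = 0.200). EIF4A1, the helicase itself, had only 103 to 145 counts per library, whereas its paralog EIF4A2 had 12440 to 14266. Exons of EIF4A1 are shared with the lncRNA ENSG00000264772 (42.1% of its exon bases), the readthrough gene SENP3-EIF4A1 (28.2%) and snoRNAs. Its log2 fold change was 0.24 (SE 0.12, adjusted p = 0.212), and the part of the shared exons and of the low counts in this value was not tested. The part of the shared exons in the low counts was not tested either, so the counts are not read as the level of EIF4A1.

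Of 13 genes for cap binding, the exon junction complex, and SR proteins and their kinases, a list that also held the DNA polymerase subunit gene POLD2, none passed. NCBP2 had the smallest p, followed by the exon junction genes MAGOHB (log2 fold change 0.15, adjusted p = 0.119) and RBM8A (-0.080, adjusted p = 0.252). The median of this list was 0.044. In pyrimidine synthesis, beside CAD, none of 6 genes passed, and CTPS1 (-0.081), UMPS (0.090) and CTPS2 (0.051) had the smallest p-values, with adjusted p from 0.218 to 0.432.

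Among 19 partners of URI1 and BAD, BCL2L1 was lower and none was higher. BCL2L1 encodes BCL-xL, the survival protein that BAD binds. Its counts were 1543, 1606 and 1446 in WT and 1219, 1312 and 1133 in S6K1-/- libraries. Every S6K1-/- library was below every WT library, and the level fell from 63.7 ± 1.56 to 52.9 ± 1.63 CPM (SD, n = 3 each). The log2 fold change was -0.27 (SE 0.044, adjusted p = 6.88e-04). Without any 1 of the 6 libraries it did not pass 0.001 (adjusted p from 0.00135 to 0.00741, log2 fold change from -0.29 to -0.25). The antisense transcript ABALON shares 41.3% of the exon bases of BCL2L1 and was also lower in each S6K1-/- library, at 450, 429 and 403 counts in WT and 348, 354 and 351 counts in S6K1-/- libraries. Without a stated strand setting, reads from this pair cannot be told apart.
The ratio of BAD to BCL2L1 counts was 0.145, 0.145 and 0.135 in WT and 0.135, 0.165 and 0.164 in S6K1-/- libraries. The groups overlapped in S6K1-/- replicate 1, and the exact two-sided permutation test gave p = 0.3. The URI1 partner PPP1CC (log2 fold change -0.095, adjusted p = 0.154) and the 14-3-3 gene YWHAB (0.089, adjusted p = 0.160) did not pass.

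**Figure D5:**
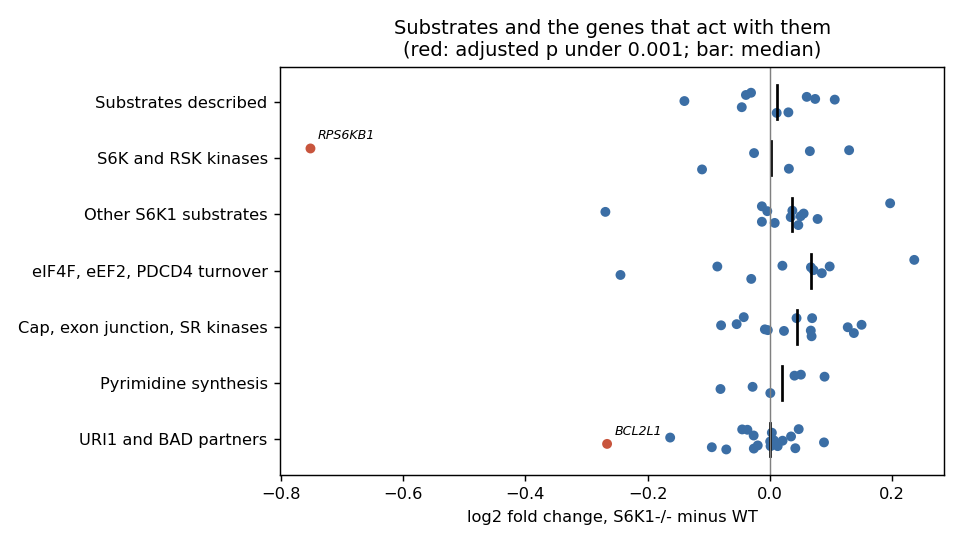
Log2 fold change of S6K1-/- minus WT (horizontal axis) for the 9 substrates and for 6 lists of genes that act with them, with 1 point per gene, red points past an adjusted p of 0.001 and a vertical bar for the median of each list. RPS6KB1 at -0.75 and BCL2L1 at -0.27 are the red points, and the medians of the 7 rows lie between 0.00059 and 0.067.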

How the data were processed

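RNA of 3 WT and 3 S6K1-/- libraries was sequenced after poly(A) selection with a stranded kit. The authors trimmed the reads with Trim Galore 0.6.5, aligned them to GRCh38 with Bowtie2 2.4.5, sorted them with Sambamba and counted them per gene with featureCounts, and deposited whole-number counts per gene symbol without normalization. The annotation release and the strand and multi-mapping settings are not given in the sources used here. A second deposited table holds the authors' own DESeq2 comparison (means, fold changes, errors, statistics and p-values) and was not used.

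Columns were assigned to libraries by name. Genes were filtered with filterByExpr and scaled by TMM, and the genotype effect was tested, without covariates, in edgeR 4.0.16 under R 4.3.3. Standard errors were the log2 fold change divided by the square root of F, and 95% intervals used the t distribution with the fit's total degrees of freedom. CPM were computed on the TMM-scaled totals of the tested genes. The steps were tested on simulated data. Libraries of a group differed by more than counting noise (their chi-square divided by its degrees of freedom was 2.22 to 4.46).

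The 9 genes and all lists were chosen with earlier results of these data known. The text names every member, RPS6KB1, RPS6KB2, and in each list of genes acting with the members the genes past the threshold or, where under 3 passed, the 3 with the smallest p, plus the 3 genes closest in pattern to the member with the smallest p. RPS6, MTOR, RICTOR, IRS1, GSK3B, POLD2, EIF4H and EIF4A2 were named beyond this rule after their values were seen. So were the cell type markers, the pseudogenes of EIF4B and the overlapping genes. EPRS1 was matched as EPRS. Exon lengths, overlaps and coding sequences came from GENCODE 44, whose coding sequences were translated for the motif search in place of RefSeq proteins, and the counts come from another, unnamed annotation. As alternatives, scaling used the size factors of DESeq2 1.42.0 or testing its Wald statistic, the filter was dropped or set to 10 or more counts throughout, a replicate block was added, single libraries were left out, the threshold was set to 0.05, and length and motif were defined in other ways. The 3 ratios of counts were added after seeing the data.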

Additional observations from a re-analysis of the deposited data

How the results depend on the processing

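None of the 9 substrates passed 0.001 in any of the 11 other fits of each gene, and the direction held in 96 of these 99 fits. It turned for PDCD4 without WT replicate 3 (-0.078 to 0.019 with 1 library left out), for POLDIP3 without WT replicate 2 (-0.0040 to 0.029) and for CAD without WT replicate 1 (-0.079 to 0.012), and the cause was not tested. DESeq2's size factors shifted the median gene by 0.0066 on the log2 scale. Over all genes, 496 were lower and 278 higher. Without the filter on low counts the numbers were 982 and 591, at an adjusted p under 0.05 they were 1622 and 1067, and with 1 library left out they ran from 313 to 445 and from 175 to 235, with fewer libraries in each fit. Of the genes acting with the substrates, 2 passed, 3 did with DESeq2's Wald test and also without the filter (FBXW11 added), 5 at an adjusted p under 0.05, and 1 with any 1 library left out, as BCL2L1 no longer passed. With the replicate number as a block, 423 genes were lower, 241 higher and none of the 9 substrates passed. Whether same-numbered libraries share more than a number is not stated. Their deviations correlated at 0.018, 0.0017 and 0.032, and those of differently numbered libraries from -0.052 to 0.034. Deviations from a mean of 3 libraries depend on each other, so these values cannot decide whether a batch was shared. BAD had the fewest counts, 165 to 233 per library, and its S6K1-/- libraries varied by 12.7% where counting alone gives 7.27%.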
